A study of Danio rerio with 12 samples.

Results

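In primary growth follicles of zebrafish, 154 genes differed between fish lacking 1 copy of cdkn1a and wild type fish in opposite directions at the 2 ages studied. Of 32057 genes measured, 60 were higher in cdkn1a+/- than in wild type (WT) follicles at 50 days post-fertilization (dpf) and lower at 8 months post-fertilization (mpf). The other 94 were lower in cdkn1a+/- at 50 dpf and higher at 8 mpf. A gene was taken when the ratio of its group means was at least 1.5 in 1 direction at one age and at least 1.5 in the other direction at the other age, when the cdkn1a+/- and WT samples did not overlap at either age, and when at least 1 group mean reached 100 on the deposited normalised scale, about 2 CPM (reads of the gene for each 1000000 counted). The values that chose these genes were thus the genotype ratios at both ages and the highest group mean. Those ratios and the group levels are described below and support nothing. The mean effect of age over both genotypes was tested, but it does not stand wholly apart from the choice. The minimum of 100 entered it, since some genes reached that at 1 age alone. Group values near 0 counts, such as those of ela2l in WT at 8 mpf, entered both the genotype ratio and the age effect.

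The product of cdkn1a, p21, inhibits cyclin-dependent kinases and is a main transcriptional target of p53. A primary growth follicle holds an oocyte arrested in meiotic prophase inside a thin layer of follicle cells, before cortical alveoli form and yolk is taken up. Plasma proteins such as transferrin and the apolipoproteins are made chiefly by hepatocytes, and digestive proenzymes by the acinar cells of the pancreas.

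Bulk RNA sequencing covered 4 groups of 3 samples, all of the AB strain: WT (cdkn1a +/+) and heterozygous cdkn1a+/- follicles, each at 50 dpf and at 8 mpf. Per the series description, embryos with both copies mutated do not survive, so the mutant groups kept 1 intact copy. The labels do not say that the 3 samples of a group came from separate fish, so p-values measure the spread between these samples, which may be technical. Follicles are mixtures of cells, and in bulk samples fewer cells of a type and less RNA per cell cannot be told apart.

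Each library held 31044931 to 96839220 counts. The transcript of cdkn1a stood at 3.37, 3.87 and 3.50 CPM in WT and at 0.450, 0.422 and 0.519 in cdkn1a+/- at 50 dpf. At 8 mpf it stood at 0.668, 1.13 and 0.778 CPM in WT and at 0.397, 0.651 and 0.583 in cdkn1a+/-, so the genotypes did not overlap at either age. Oocyte markers (the zona pellucida proteins, gdf9, ddx4 and others) were detected for 34 or 35 of 35 genes in every library and summed to 53765 to 65329.9 CPM in WT and 84635 to 114884 in cdkn1a+/- at 50 dpf, and 34090.3 to 43419.7 and 50008 to 54809 at 8 mpf. The number of genes with any count was lower in cdkn1a+/- at 50 dpf (18903 to 19510) than in WT (21046 to 22496), while at 8 mpf the genotypes overlapped (19272 to 21771 and 20569 to 22525). The part of these differences in the results below was not tested.

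Of 13343 genes with a group mean of at least 100, the 60 genes higher at 50 dpf and lower at 8 mpf made up 0.450% and the 94 of the other direction 0.704%. Genes that met the same conditions in 1 direction at both ages were more numerous, with 584 higher in cdkn1a+/- (4.38%) and 997 lower (7.47%). The conditions for 50 dpf, whatever the other age, were met by 12.7% of genes upward and 17.2% downward, and those for 8 mpf by 8.53% and 12.6%. Leaving out replicate 2 of WT at 8 mpf raised the set lower at 50 dpf and higher at 8 mpf from 94 to 157 genes, of which 90 were among the 94. With CPM scaled by library size alone, a setting added after the data were seen, 39 genes were higher and then lower, 27 of them among the 60, and 102 were lower and then higher, 62 of them among the 94. On that scale 59 of the 60 (all but SIK2) and all 94 had the same signs at both ages.

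The 60 genes had a median log2 ratio of cdkn1a+/- to WT of 0.91 at 50 dpf (0.59 to 2.77) and -1.01 at 8 mpf (-3.13 to -0.61), and 13 of them reached 2-fold at both ages. The 94 genes had a median of -1.27 at 50 dpf (-4.83 to -0.59) and 1.26 at 8 mpf, and 37 reached 2-fold at both ages. Their 8 mpf ratios ran from 0.59 to 4.49, apart from ela2l, which had only 3 counts in all 3 WT samples at that age; the 4.49 was that of ANK1, 1.86 in CPM. The 94 therefore spanned the wider range at both ages.

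**Figure D1:**
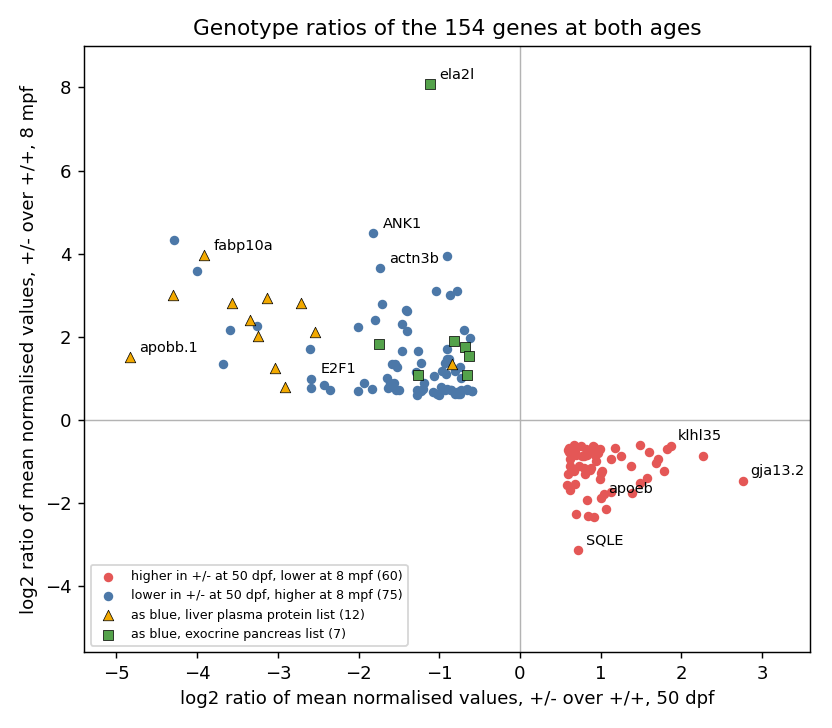
Each point is 1 of the 154 genes, with the log2 ratio of mean normalised values in cdkn1a+/- over WT at 50 dpf on the horizontal axis and at 8 mpf on the vertical axis; colours and shapes give the direction and the marker lists. The liver genes reach furthest left (apobb.1 at -4.83), SQLE lies lowest (-3.13), and the gap around both axes is the ratio of 1.5 that chose the genes.

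Among the 60, WT at 8 mpf was the highest group for 34 genes and cdkn1a+/- at 50 dpf for 26 (22.0% and 29.1% of the 13343 genes). The lowest group was WT at 50 dpf for 30 (24.8%) and cdkn1a+/- at 8 mpf for 30 (19.7%). The choice of the genes allowed no other group to be highest or lowest. These counts therefore cannot be compared with the shares of all genes, where any group could be. The most common profiles ran from WT at 50 dpf as the lowest to WT at 8 mpf as the highest group (28 genes) and from cdkn1a+/- at 8 mpf as the lowest to cdkn1a+/- at 50 dpf as the highest (24 genes). In WT the median log2 ratio of 8 mpf to 50 dpf was 0.95, and for 39 genes every 8 mpf value lay above every 50 dpf value (35.8% of the 13343 genes did so). In cdkn1a+/- the median was -0.90, and for 38 genes every 8 mpf value lay below every 50 dpf value (35.2% of the 13343). The difference between these age effects follows from the choice of the genes. These age counts too cannot be compared with the shares of all genes.

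Among the 94, WT at 50 dpf was the highest group for 71 genes and cdkn1a+/- at 8 mpf for the other 23 (23.2% and 25.8% of the 13343). WT at 8 mpf was the lowest group for 64 (27.9%) and cdkn1a+/- at 50 dpf for 30 (27.6%). Here too the choice allowed no other group to be highest or lowest, so these counts cannot be compared with the shares of all genes. In WT the median log2 ratio of 8 mpf to 50 dpf was -2.33, and 78 genes had all 8 mpf values below all 50 dpf values (35.4% of the 13343). In cdkn1a+/- the median was 0.35, with 43 genes wholly above (36.8%) and 31 wholly below (35.2%). The choice set WT above cdkn1a+/- at 50 dpf and below it at 8 mpf. That favoured a fall with age in WT and a rise in cdkn1a+/-. These age counts therefore cannot be compared with the shares of all genes either. The most common profile, in 58 of the 94, had the highest mean in young WT follicles, the lowest in old WT follicles, and both cdkn1a+/- groups in between.

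**Figure D2:**
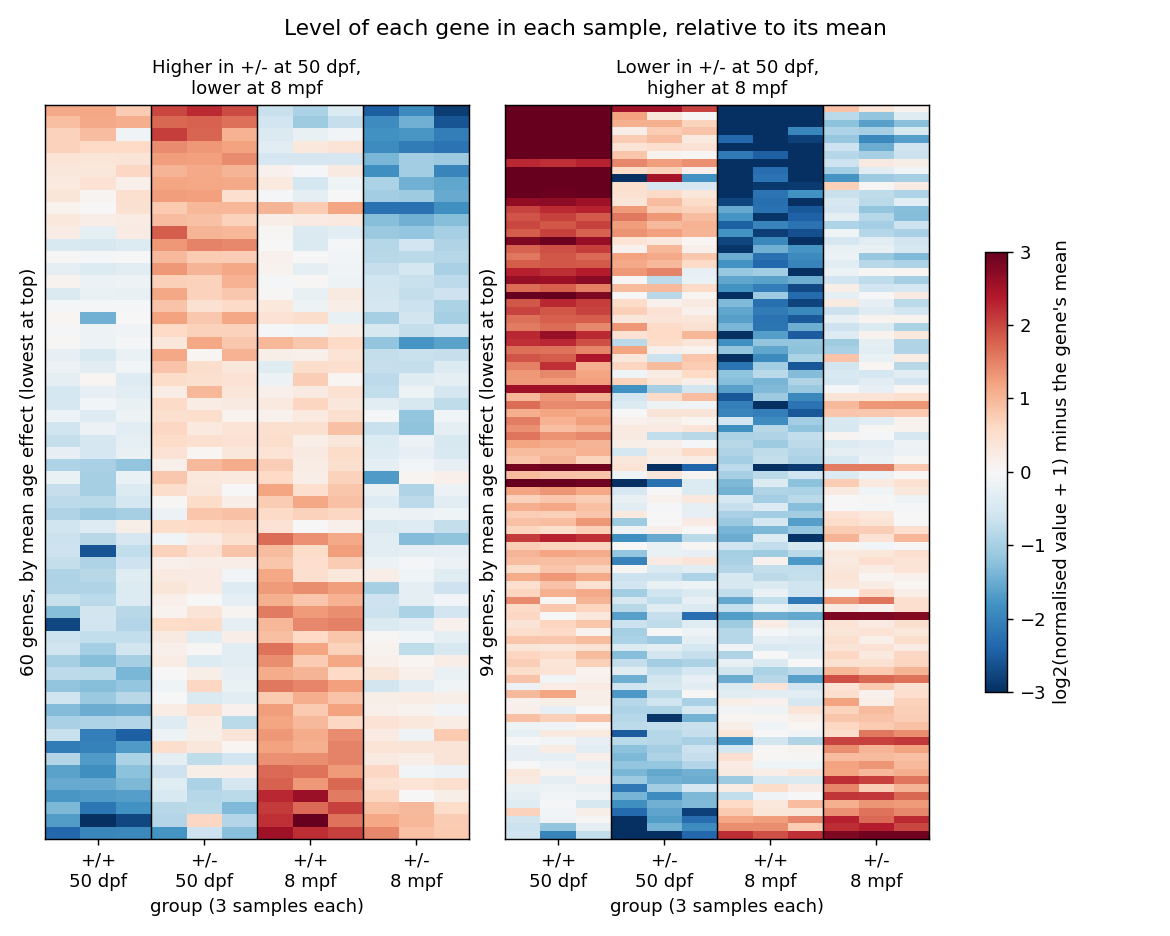
Rows are the 60 genes (left) and the 94 genes (right) and columns the 12 samples; colour is log2(normalised value + 1) minus the gene's mean over samples, held at 3 in either direction. On the left the 2 middle groups are red for most rows, and on the right the first group is red and the third blue for the genes that fell with age.

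Age over both genotypes was tested with edgeR's quasi-likelihood test, Benjamini-Hochberg adjusted over 18834 genes, with a threshold of 0.05. Of the 60, 27 rose with age and 21 fell (45% and 35%), where 33.3% and 31.8% of all tested genes and 40% and 34.9% of the 13343 genes with a group mean of at least 100 did. Their median log2 change was 0.20, from -3.13 to 3.43, with a median of -0.01 over all genes. Of the 94, 20 rose and 58 fell (21.3% and 61.7%), with a median of -0.99. The changes ran from -6.16 (ela2l) to 4.78 (CAMTA1, with 41, 8 and 33 counts in WT and 2, 0 and 6 in cdkn1a+/- at 50 dpf). Without the 19 genes on the liver and pancreas lists, 19 of the other 75 rose and 41 fell (25.3% and 54.7%), with a median of -0.60. The lists do not cover every gene of these organs, and PKLR, BHMT and hpxa, described below, were among the 75. The minimum of 100 bears on these counts, since a gene that reached it at 1 age alone was likely to differ with age. Of the 94, 33 reached it at 50 dpf alone, 30 of which fell and 0 rose, and 12 at 8 mpf alone, 9 of which rose and 0 fell. Of all genes that reached it at 50 dpf alone, 82.0% fell. The other 49 of the 94 reached it at both ages, and 11 of them rose and 28 fell (22.4% and 57.1%), beside 41.0% and 32.7% of all 11767 genes that did so. Of the 60, 46 reached it at both ages, with 20 rising and 17 falling. The counts are given as a description, and for genes with no group mean of 100 at 1 of the ages the choice favoured the direction of the age effect. That limit also holds for the adjusted p-values of age given below for single genes. Examples are gja13.2, EFNB3, PLXNC1, c1qb and E2F1, which reached 100 at 8 mpf alone, and egr4, epha2b, fetub and hsd17b1, at 50 dpf alone. In the genotype contrasts of the same fit, which the choice of genes had used, 50 of the 60 and 73 of the 94 passed at both ages. Of all genes, 19.6% were higher and 21.2% lower in cdkn1a+/- at 50 dpf (40.8% in all), and 12.6% and 15.5% at 8 mpf (28.1%). The difference passed for 58 of the 60 and 91 of the 94, and for 13.5% of all genes (6.88% upward and 6.65% downward). Nothing is read from these counts.

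**Figure D3:**
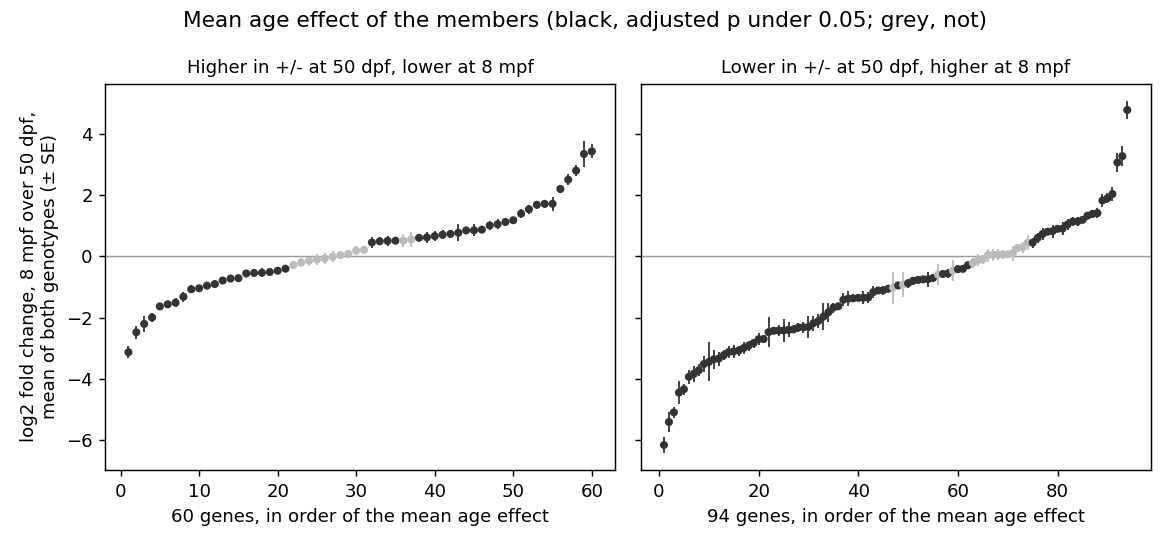
Points are the log2 fold change from 50 dpf to 8 mpf averaged over both genotypes, with SE bars, for the 60 genes (left) and the 94 genes (right) in order of size; black points passed an adjusted p of 0.05. On the left 27 black points lie above 0 and 21 below, and on the right 20 above and 58 below.

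The genes higher in cdkn1a+/- at 50 dpf and lower at 8 mpf included several receptors, ligands and channels of the cell surface. The share of such genes was not counted in either direction or over all genes. The connexin gene gja13.2, of the family that forms gap junctions, was scarce at 50 dpf, with 6, 0 and 2 counts in WT and 6, 16 and 6 in cdkn1a+/-. Its normalised values at 8 mpf were 87.9, 164 and 59.5 in WT and 42.2, 37.9 and 32.3 in cdkn1a+/-. All 8 mpf samples lay above all 50 dpf samples, and the rise with age passed the test (log2 3.34 ± 0.43 SE, adjusted p = 1.84e-05).

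EFNB3, an ephrin and so a ligand of Eph receptors, stood at 26.6, 24.9 and 27.3 in WT and 56.8, 96.3 and 53.8 in cdkn1a+/- at 50 dpf. The 8 mpf values were 187, 173 and 147 in WT and 41.7, 49.2 and 57.7 in cdkn1a+/-. Old WT follicles stood above all other groups, and the 2 cdkn1a+/- groups overlapped. Averaged over genotypes, EFNB3 rose with age (log2 1.05 ± 0.16 SE, adjusted p = 8.82e-05).

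The Eph receptor gene epha2b moved the other way with age. Its values were 107, 109 and 83.5 in WT and 197, 233 and 190.3 in cdkn1a+/- at 50 dpf, and 30.4, 24.6 and 36.5 in WT and 7.95, 12.4 and 5.89 in cdkn1a+/- at 8 mpf. No 8 mpf sample reached any 50 dpf sample, a fall (log2 -3.13 ± 0.19 SE, adjusted p = 4.96e-08). PLXNC1, a semaphorin receptor, had 50 dpf values of 12.2, 10.2 and 16.2 in WT and 25.1, 44.4 and 45.4 in cdkn1a+/-. It had 129.7, 124 and 96.9 in WT and 60.9, 36.9 and 34.6 in cdkn1a+/- at 8 mpf, with old WT follicles alone near or above 100. Averaged over genotypes it rose with age (log2 1.71 ± 0.22 SE, adjusted p = 2.26e-05), while the cdkn1a+/- samples of the 2 ages overlapped.

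The gene egr4, of a family of zinc finger transcription factors induced early after stimulation, had values of 58.5, 69.4 and 33.6 in WT and 155, 124 and 75.5 in cdkn1a+/- at 50 dpf. It fell to 26.4, 31 and 34 in WT and 9.53, 10.2 and 7.86 in cdkn1a+/- at 8 mpf (log2 -2.21 ± 0.25 SE, adjusted p = 6.21e-06). The young cdkn1a+/- follicles were highest and the old cdkn1a+/- follicles lowest.

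Apolipoprotein E carries lipids between cells and is made by hepatocytes and macrophages. Its zebrafish gene apoeb had values of 414, 428 and 442 in WT and 1007, 773 and 796 in cdkn1a+/- at 50 dpf, and 6651, 8341 and 4103 in WT and 2170.2, 1407 and 1581 in cdkn1a+/- at 8 mpf. The old WT follicles stood above every other sample, and apoeb rose with age (log2 2.5 ± 0.17 SE, adjusted p = 1.12e-07). It was the 1 gene of the liver list among the 60, in the opposite direction to the 12 liver genes among the 94.

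The complement gene c1qb, expressed chiefly by macrophages, had 6.5, 8.85 and 9.08 in WT and 10.1, 24.1 and 15.1 in cdkn1a+/- at 50 dpf. Its 8 mpf values were 222, 178 and 157 in WT and 103, 69.98 and 64.8 in cdkn1a+/-. All old samples lay above all young ones (log2 3.43 ± 0.23 SE, adjusted p = 9.18e-08). The inflammatory cytokine gene il1b had 97, 101 and 104 in WT and 147, 223 and 109 in cdkn1a+/- at 50 dpf. At 8 mpf il1b had 434, 374 and 296 in WT and 261, 240.3 and 223 in cdkn1a+/-, again with a rise with age (log2 1.39 ± 0.14 SE, adjusted p = 2.36e-06). The leukocyte list as a whole went another way: 11 of its 28 tested genes were lower in cdkn1a+/- at 50 dpf and 1 higher, and 10 were lower at 8 mpf and 0 higher by edgeR's quasi-likelihood test (also 0 higher at an unadjusted p under 0.05, by DESeq2 and by limma). Among all tested genes 21.2% were lower and 19.6% higher at 50 dpf, and 15.5% and 12.6% at 8 mpf. The leukocyte list summed to 309.7 to 325 CPM in WT and 187 to 211 in cdkn1a+/- at 50 dpf, and 192 to 224 and 132 to 163 at 8 mpf, lower in cdkn1a+/- at both ages, and its part in the result for c1qb and il1b was not tested.

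SQLE (ENSDARG00000079946), named for squalene epoxidase, an early oxygen-using step of cholesterol synthesis, had the lowest 8 mpf ratio of the 60. Its values were 166, 153 and 209.8 in WT and 264, 305 and 305 in cdkn1a+/- at 50 dpf. At 8 mpf they were 312, 261 and 350.4 in WT and 31.8, 31.6 and 41.7 in cdkn1a+/-, 8.78-fold lower in the mean. The old cdkn1a+/- samples lay far below the other 9, and SQLE fell with age on average (log2 -1.08 ± 0.13 SE, adjusted p = 8.79e-06). None of the other 29 tested genes of the sterol synthesis list was among the 154. ABCG1, a transporter that exports cholesterol from cells and was chosen after its values were seen, stood at 90.2, 91.5 and 92.6 in WT and 172, 131 and 140.5 in cdkn1a+/- at 50 dpf, and at 118, 85.5 and 109.6 in WT and 65.9, 59.8 and 48.6 in cdkn1a+/- at 8 mpf.

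Among the most abundant of the 60 were enzymes and an adaptor. GLUL (ENSDARG00000099776), named for glutamine synthetase, had 2017, 1820.5 and 1943 in WT and 5938, 4926 and 5386 in cdkn1a+/- at 50 dpf, and 2591, 1966 and 2235 in WT and 1506, 1673 and 1239 in cdkn1a+/- at 8 mpf. The young cdkn1a+/- follicles stood alone at the top, and the other 3 groups all lay below it, a fall with age averaged over genotypes (log2 -0.73 ± 0.09 SE, adjusted p = 1.19e-05). The kelch-like gene klhl35, of a family of ubiquitin ligase adaptors, had the same profile. Its values were 1076, 1061 and 1109 in WT and 3652, 4151 and 4032 in cdkn1a+/- at 50 dpf, and 1462, 1097 and 1445 in WT and 814, 989.9 and 794 in cdkn1a+/- at 8 mpf (log2 -0.91 ± 0.09 SE, adjusted p = 1.33e-06).

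PPT1, the lysosomal palmitoyl-protein thioesterase, and TG, named for thyroglobulin, had another profile, with old WT follicles at the top. PPT1 values were 2215, 2059 and 2065 in WT and 4119, 2763 and 3926 in cdkn1a+/- at 50 dpf, and 6405, 5206 and 6079 in WT and 3506, 3263 and 2827 in cdkn1a+/- at 8 mpf. TG stood at 1536, 1331 and 1631 in WT and 2789, 2909 and 2899 in cdkn1a+/- at 50 dpf, and at 4465, 3572 and 4301 in WT and 2233, 2430.1 and 2211 in cdkn1a+/- at 8 mpf. PPT1 rose with age when averaged over genotypes (log2 0.84 ± 0.09 SE, adjusted p = 4.81e-06). TG did so as well (log2 0.60 ± 0.07 SE, adjusted p = 1.14e-05). In WT all 8 mpf values of both genes lay above all 50 dpf values. In cdkn1a+/- all 8 mpf values of TG lay below all 50 dpf values, and the PPT1 values of the ages overlapped.

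RYR1 (ENSDARG00000023797), which in mammals names the calcium release channel of skeletal muscle, had 1024, 949 and 982 in WT and 1605, 1694 and 1704 in cdkn1a+/- at 50 dpf. It had 1035, 1006 and 1215 in WT and 755, 646 and 710.2 in cdkn1a+/- at 8 mpf, so that both WT groups were close and the cdkn1a+/- groups lay above and below them. Averaged over genotypes it fell (log2 -0.51 ± 0.07 SE, adjusted p = 5.18e-05). The riboflavin transporter family gene slc52a3-2b had 213, 187 and 192 in WT and 614, 722 and 569 in cdkn1a+/- at 50 dpf. At 8 mpf slc52a3-2b had 1250.3, 899 and 1208 in WT and 579, 565 and 494 in cdkn1a+/-. Averaged over genotypes it rose with age (log2 1.18 ± 0.10 SE, adjusted p = 7.36e-07), while the cdkn1a+/- samples of the 2 ages overlapped.

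Other named genes of the 60 were described by their ratios. Genes higher at 50 dpf and lower at 8 mpf by about 2-fold or more were arhgap20 (2.81-fold and 2.88-fold), and marchf11, a ubiquitin ligase gene (2.001-fold and 2.43-fold). For DGLUCY, the D-glutamate cyclase gene, the folds were 1.92 and 1.98, and for dleu7 1.88 and 5.10. Ratios of CIAO2B, an iron-sulphur cluster assembly gene (2.18 and 1.94), and of the G protein subunit gene gnb4b (1.88 and 1.72) were moved by more than 1.5 times by gene-specific factors in the normalised table, and kept their sign in CPM. Of these, dleu7 did not pass the test of age (log2 0.51 ± 0.22 SE, adjusted p = 0.0567).

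Signalling genes of the BMP and Notch pathways were among the 60 as well, chosen here after their values were seen except bmp16. The ligand gene GDF2 had 47.1, 63.5 and 57.2 in WT and 111, 87.9 and 95.2 in cdkn1a+/- at 50 dpf, and 99.9, 99.5 and 133 in WT and 44.5, 30.5 and 59.4 in cdkn1a+/- at 8 mpf. LFNG, whose product adds sugar to Notch receptors, had 189, 187 and 229 in WT and 304, 325 and 303 in cdkn1a+/- at 50 dpf, and 163, 143 and 180.1 in WT and 41, 71.7 and 36.9 in cdkn1a+/- at 8 mpf. The Notch target gene HEY2 had 86.2, 48.7 and 82.6 in WT and 133, 93 and 107 in cdkn1a+/- at 50 dpf, and 414, 419 and 447 in WT and 192, 184 and 210.2 in cdkn1a+/- at 8 mpf. LFNG fell with age (log2 -1.57 ± 0.11 SE, adjusted p = 9.73e-08) while HEY2 rose (log2 1.71 ± 0.14 SE, adjusted p = 4.36e-07), and GDF2 did not pass the test (log2 -0.02 ± 0.18 SE, adjusted p = 0.952).

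**Figure D4:**
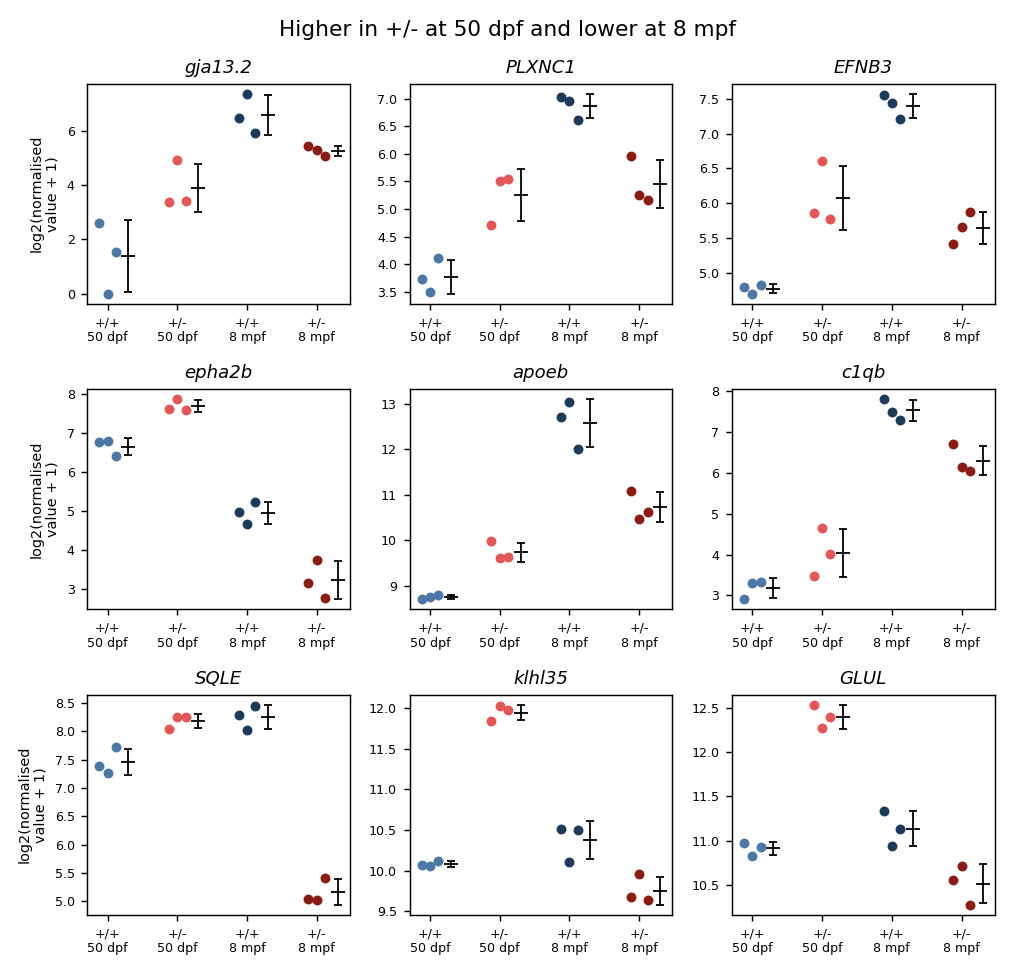
Points are the 3 samples of each group for 9 of the 60 genes, on a log2(normalised value + 1) axis that differs between panels and does not start at 0; the dash and bar are the mean and SD. In every panel the cdkn1a+/- points lie above the WT points at 50 dpf and below them at 8 mpf. The level with age differs: apoeb and c1qb rose and epha2b fell in both genotypes, while klhl35 fell in cdkn1a+/- alone.

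The genes lower in cdkn1a+/- at 50 dpf and higher at 8 mpf included 12 genes of the liver plasma protein list and 7 of the exocrine pancreas list. The median log2 ratio of cdkn1a+/- to WT over the 12 liver genes was -3.19 at 50 dpf and 2.26 at 8 mpf. In WT their median log2 ratio of 8 mpf to 50 dpf was -6.50, and in cdkn1a+/- it was -1.07. Averaged over genotypes, 10 of the 12 fell with age and 1, ITIH2, rose. All of the 12 but tfa and ITIH2 reached the minimum of 100 at 50 dpf alone. Of all genes that did so 82.0% fell, so the choice favoured a fall.

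The liver fatty acid binding protein gene fabp10a, a hepatocyte marker in zebrafish, had values of 930, 1012 and 881 in WT and 94.2, 46.5 and 46.8 in cdkn1a+/- at 50 dpf. At 8 mpf it had 0, 14 and 10 counts in WT and 138, 61 and 161 in cdkn1a+/-, or 0, 8.2 and 8.3 in WT and 109.6, 68.9 and 79.1 in cdkn1a+/- as normalised values. Old and young cdkn1a+/- samples overlapped, while WT went from the highest group to the lowest. The mean change with age was log2 -3.37 ± 0.30 SE, adjusted p = 9.25e-07.

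Fetuin B, a plasma inhibitor of metalloproteases, is encoded by fetub. It had 2747, 2825 and 2897 in WT and 301, 303 and 228 in cdkn1a+/- at 50 dpf, and 3.92, 15.8 and 11.6 in WT and 60.4, 46.3 and 59.9 in cdkn1a+/- at 8 mpf. The 4 groups did not overlap, and fetub was lower at 8 mpf in both genotypes (mean change log2 -5.10 ± 0.19 SE, adjusted p = 4.67e-09). Its neighbour ahsg1, also a fetuin gene, had 236, 276 and 273 in WT and 21.9, 32.7 and 34.7 in cdkn1a+/- at 50 dpf, and at 8 mpf 0, 0 and 5 counts in WT and 12, 8 and 27 in cdkn1a+/-.

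Proteins of high-density lipoprotein were represented by apoa1b and apoa2. For apoa1b the 50 dpf values were 2435, 1576 and 2120.3 in WT and 167, 179 and 169 in cdkn1a+/-, and the 8 mpf values 10.5, 10.2 and 8.79 in WT and 80.6, 44.4 and 82.9 in cdkn1a+/-. For apoa2 they were 2749, 2571 and 2652 in WT and 344, 383 and 246 in cdkn1a+/- at 50 dpf, and 38.7, 19.8 and 28.1 in WT and 90.5, 52.2 and 63.3 in cdkn1a+/- at 8 mpf. Both were highest in young WT and lowest in old WT follicles, and both fell with age (log2 -3.93 ± 0.23 SE, adjusted p = 4.78e-08 for apoa1b and log2 -4.34 ± 0.18 SE, adjusted p = 8.44e-09 for apoa2).

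Further lipoprotein genes were apoc2, the cofactor of lipoprotein lipase, and apobb.1, an apolipoprotein B gene. At 50 dpf apoc2 had 181, 119 and 184 counts in WT and 0, 12 and 3 in cdkn1a+/-. At 8 mpf it had 0, 5 and 0 counts in WT and 6, 8 and 20 in cdkn1a+/-, so its later ratio rests on few reads. With 289, 377 and 271 in WT and 0, 6.64 and 26.2 in cdkn1a+/- at 50 dpf, and 13.21, 26 and 14.4 in WT and 59.8, 43.5 and 48.5 in cdkn1a+/- at 8 mpf, apobb.1 did not pass the test of age (log2 -0.93 ± 0.41 SE, adjusted p = 0.0638).

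Transferrin, the iron carrier of plasma, is encoded by tfa, which had 2084, 2010.3 and 2227 in WT and 348, 196 and 297 in cdkn1a+/- at 50 dpf. At 8 mpf tfa had 115, 111 and 122 in WT and 229, 201 and 170.3 in cdkn1a+/-, a fall with age (log2 -2.43 ± 0.10 SE, adjusted p = 6.80e-09). CP, named for the copper-carrying ferroxidase ceruloplasmin, had 570.5, 632 and 506 in WT and 108, 101 and 85.5 in cdkn1a+/- at 50 dpf, and 11.5, 20.6 and 8.91 in WT and 57.4, 63.9 and 55.1 in cdkn1a+/- at 8 mpf. Young WT samples stood far above the other 3 groups for both genes.

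The antitrypsin genes serpina1 and serpina1l encode protease inhibitors. Values of serpina1 were 807, 814 and 825 in WT and 118, 71.4 and 68.5 in cdkn1a+/- at 50 dpf, and 14.5, 11.3 and 1.6 in WT and 36.6, 32.6 and 42.5 in cdkn1a+/- at 8 mpf. Those of serpina1l were 459.9, 453 and 428 in WT and 71.3, 78.8 and 53.7 in cdkn1a+/- at 50 dpf, and 3.77, 9.03 and 2.4 in WT and 23.3, 38.1 and 45.2 in cdkn1a+/- at 8 mpf. These near copies may share reads, so how the signal divides between them is uncertain.

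ITIH2, named for a heavy chain of the inter-alpha-trypsin inhibitor, stood apart from the other liver genes in its age effect. Its values were 129, 178 and 122 in WT and 65.1, 76.1 and 97.9 in cdkn1a+/- at 50 dpf, and 105, 156 and 164 in WT and 404, 309.7 and 356 in cdkn1a+/- at 8 mpf. Old cdkn1a+/- follicles were the highest group and the WT samples of both ages overlapped. It rose by log2 1.13 ± 0.16 SE, adjusted p = 3.70e-05.

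The whole liver list had 55 genes, 49 of them tested. At 50 dpf 39 were lower in cdkn1a+/- and 2 higher, and at 8 mpf 16 were higher and 4 lower by edgeR's quasi-likelihood test, and 13 were both lower at 50 dpf and higher at 8 mpf. Over all tested genes 21.2% were lower and 19.6% higher at 50 dpf, and 12.6% were higher and 15.5% lower at 8 mpf. Of the 55 genes, 51 to 53 had a count in the WT libraries at 50 dpf, 39 to 44 in cdkn1a+/-, and 33 to 44 in WT and 40 to 49 in cdkn1a+/- at 8 mpf. The list's 12 genes among the 94 were chosen on these contrasts and are part of the counts. They made up 12 of the 39 lower at 50 dpf, 10 of the 16 higher at 8 mpf and 10 of the 13 with both. The share of all tested genes with both was not counted. Examples outside the 94 were apoa1a, with a mean of 14.9 CPM in WT and 0.635 in cdkn1a+/- at 50 dpf (log2 -4.53 ± 0.42 SE, adjusted p = 6.74e-06), and kng1, the kininogen gene, with 1.37 CPM in WT and 13.3 in cdkn1a+/- at 8 mpf (log2 3.30 ± 0.21 SE, adjusted p = 3.11e-07). The mean of kng1 was also higher in cdkn1a+/- at 50 dpf, with 3.12 CPM in WT and 8.14 in cdkn1a+/-, so it did not reverse. For apoa1a the 8 mpf means were 0.129 CPM in WT and 0.154 in cdkn1a+/-. The complement gene c3a.1 was lower in cdkn1a+/- at 8 mpf, with 12 CPM in WT and 1.47 in cdkn1a+/- (log2 -3.02 ± 0.32 SE, adjusted p = 2.04e-05). Without the 13 genes among the 154, the list summed to 143 to 147 CPM in WT and 33.3 to 37.3 in cdkn1a+/- at 50 dpf, and 25 to 36 and 25.8 to 33 at 8 mpf. At 8 mpf the summed level of these 42 genes thus overlapped between the genotypes. All 55 genes summed to 409 to 424 CPM in WT and 76.7 to 90.4 in cdkn1a+/- at 50 dpf, and to 118 to 220.4 in WT and 73.8 to 102 in cdkn1a+/- at 8 mpf, so the whole list was lower in cdkn1a+/- at both ages, with no overlap. The gene apoeb alone made up 85.4 to 176 CPM of that sum in WT and 28.9 to 45.3 in cdkn1a+/- at 8 mpf. The 54 genes without apoeb summed to 32.7 to 44.4 CPM in WT and 44.9 to 57 in cdkn1a+/- at 8 mpf.

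The 7 pancreas genes had smaller ratios at 50 dpf than the liver genes, with a median log2 ratio of -0.82, and 1.76 at 8 mpf. All 7 fell with age. The trypsin-like gene prss59.1 was the most abundant, with 4539, 5035 and 4352 in WT and 3640.1, 3019 and 2322 in cdkn1a+/- at 50 dpf, and 360.3, 161 and 225 in WT and 1004, 673 and 493 in cdkn1a+/- at 8 mpf. The 4 groups did not overlap, and the change with age was log2 -3.11 ± 0.21 SE, adjusted p = 1.18e-07.

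Elastases are pancreatic proteases. For ela3l the values were 1373, 1609 and 1319 in WT and 984, 917 and 785 in cdkn1a+/- at 50 dpf, and 112, 54.5 and 61.4 in WT and 358, 213 and 197 in cdkn1a+/- at 8 mpf. For ela2l they were 1205, 1304 and 1219.6 in WT and 643, 636 and 448 in cdkn1a+/- at 50 dpf, and at 8 mpf the counts were 0, 3 and 0 in WT and 247, 123 and 243 in cdkn1a+/-. In old WT follicles ela2l was thus at the limit of detection while prss59.1 and ela3l were not.

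The amylase gene amy2a, for starch digestion, had 1143, 1508 and 1323 in WT and 462, 345 and 377 in cdkn1a+/- at 50 dpf, and 124, 64.8 and 44.5 in WT and 378, 266 and 177 in cdkn1a+/- at 8 mpf. CPB1, named for carboxypeptidase B, had 919, 996 and 821 in WT and 558, 563 and 429 in cdkn1a+/- at 50 dpf, and 81.9, 67.1 and 43 in WT and 326, 192 and 197 in cdkn1a+/- at 8 mpf. Both were highest in young WT and lowest in old WT follicles (age, log2 -2.41 ± 0.25 SE, adjusted p = 2.64e-06 for amy2a and log2 -2.43 ± 0.18 SE, adjusted p = 1.71e-07 for CPB1). The other members were CEL (ENSDARG00000017490), named for the bile salt activated lipase, and the chymotrypsinogen gene ctrb.3, with 8 mpf ratios of 2.1 and 2.11. The digestive proteases and lipases are gene families with close copies, so values of single copies are uncertain.

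Of the 22 tested genes on the pancreas list, 5 were lower and 2 higher in cdkn1a+/- at 50 dpf, and 16 were higher and 0 lower at 8 mpf by edgeR's quasi-likelihood test (also 0 lower at an unadjusted p under 0.05, by DESeq2 and by limma). Beside these counts, 21.2% of all tested genes were lower and 19.6% higher at 50 dpf, and 15.5% and 12.6% at 8 mpf. The 7 genes among the 94 were chosen on these contrasts and are part of the counts. They made up 4 of the 5 lower at 50 dpf and 7 of the 16 higher at 8 mpf. The count of lower pancreas list genes at 50 dpf depended on the processing. It was 13 in a fit of only the 2 groups compared and 13 with scaling by library size alone, 9 by DESeq2 and with upper quartile scaling, and 4 to 9 when 1 replicate was left out (9 without replicate 1 of cdkn1a+/- and 8 without replicate 1 of WT at 8 mpf, which enter the shared estimate of spread). The 2 higher genes became 1 without any single WT replicate, or without replicate 1 or replicate 2 of cdkn1a+/-, at 50 dpf, and with library size alone. All 22 genes had a count in each WT library at 50 dpf, and 16 to 19 in WT at 8 mpf. Examples outside the 94 were CPA1, named for carboxypeptidase A, with 0.216 CPM in WT and 1.38 in cdkn1a+/- at 8 mpf (log2 2.58 ± 0.36 SE, adjusted p = 2.14e-04), and ctrl, a chymotrypsin-like gene, with 12.8 CPM in WT and 5.93 in cdkn1a+/- at 50 dpf (log2 -1.10 ± 0.27 SE, adjusted p = 0.00578). The amylase gene amy2al1 went the other way at 50 dpf by the same test. It had 26.1 CPM in WT and 45.0 in cdkn1a+/- (log2 0.79 ± 0.09 SE, adjusted p = 2.60e-05). Without the 7 genes, the list summed to 346 to 398 CPM in WT and 251 to 359.8 in cdkn1a+/- at 50 dpf, and 52.1 to 66.3 and 89.8 to 128 at 8 mpf. The cdkn1a+/- samples lay above the WT samples at 8 mpf, and the 50 dpf ranges overlapped.

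The liver and pancreas lists were written as markers of other organs, and the level of their genes in CPM moved with genotype and age as given above. Erythrocyte markers summed to 51.3 to 63.9 CPM in WT and 33.4 to 45.3 in cdkn1a+/- at 50 dpf, and 32.4 to 43.9 and 21.4 to 39.2 at 8 mpf. Among stromal and vascular markers 9 of 26 tested genes were lower in cdkn1a+/- at 50 dpf and 3 higher, and 14 were lower at 8 mpf and 2 higher. Of all tested genes 21.2% were lower and 19.6% higher at 50 dpf, and 15.5% and 12.6% at 8 mpf. The list summed to 146 to 154 CPM in WT and 111 to 118 in cdkn1a+/- at 50 dpf. At 8 mpf it summed to 140 to 188 and 71.3 to 86.4, so it was lower in cdkn1a+/- at both ages. Whether liver, pancreas or blood tissue was carried into some samples was not tested.

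The genes actn3b and RYR2 were also among the 94. The fast muscle alpha-actinin gene actn3b had 885, 737 and 751 in WT and 207, 248 and 257 in cdkn1a+/- at 50 dpf, and 65.3, 29.5 and 58.6 in WT and 547, 679 and 689 in cdkn1a+/- at 8 mpf. Young WT and old cdkn1a+/- follicles were both high, and old WT follicles were 12.5-fold lower than old cdkn1a+/- follicles, with a mean fall with age (log2 -1.37 ± 0.13 SE, adjusted p = 1.86e-06). RYR2, named for the heart ryanodine receptor of mammals, had 2379.8, 2344 and 2549.6 in WT and 1732, 1409 and 1195 in cdkn1a+/- at 50 dpf, and 727, 688 and 689.6 in WT and 1923, 1759.6 and 1431 in cdkn1a+/- at 8 mpf. The 2 cdkn1a+/- groups overlapped, and the WT samples lay above them at 50 dpf and below them at 8 mpf (age, log2 -0.75 ± 0.10 SE, adjusted p = 2.13e-05). Of the skeletal muscle list, only actn3b and RYR1, of opposite directions, were among the 154. In the whole list, with 32 genes tested, 5 were higher and 6 lower in cdkn1a+/- at 50 dpf and 2 higher and 7 lower at 8 mpf. Beside these counts, 19.6% of all tested genes were higher and 21.2% lower at 50 dpf, and 12.6% and 15.5% at 8 mpf. No gene of the oocyte, erythrocyte, stromal and vascular, p53 target, ER folding or immediate early and heat shock lists was among the 154.

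E2F1 (ENSDARG00000103868), the transcription factor that drives entry into S phase downstream of the kinases p21 inhibits, was the 1 member of the cell cycle list. At 50 dpf it had 76, 24 and 47 counts in WT and 4, 7 and 3 in cdkn1a+/-, or 61.8, 35.4 and 42.7 in WT and 6.73, 12.1 and 4.53 in cdkn1a+/- as normalised values. At 8 mpf it had 65.6, 48.6 and 49 in WT and 100.1, 119.6 and 104 in cdkn1a+/-. WT samples overlapped between ages, and the old cdkn1a+/- samples were the highest of all. Averaged over genotypes, E2F1 rose with age (log2 2.03 ± 0.23 SE, adjusted p = 6.29e-06), from few counts in cdkn1a+/- at 50 dpf.

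The steroid enzyme gene hsd17b1, whose product makes oestradiol in follicle cells, had 222, 233 and 186 in WT and 26.9, 70.6 and 61.9 in cdkn1a+/- at 50 dpf. At 8 mpf it had 12.7, 20.5 and 20.8 in WT and 22.2, 39.5 and 25 in cdkn1a+/-. It fell with age (log2 -2.18 ± 0.24 SE, adjusted p = 5.21e-06) and was the 1 gene of the follicle somatic list among the 154. That list summed to 802 to 846 CPM in WT and 897 to 1076 in cdkn1a+/- at 50 dpf, and 541 to 597 and 597 to 601 at 8 mpf. Its single genes mostly went the other way. Of 41 tested, 15 were lower and 4 higher in cdkn1a+/- at 50 dpf (median log2 change -0.77). At 8 mpf 11 were lower and 2 higher (median -0.47). Of all tested genes 21.2% were lower and 19.6% higher at 50 dpf, and 15.5% and 12.6% at 8 mpf.

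TDRD7, a Tudor domain gene of germ granules, and rnf212, a meiotic crossover gene, were chosen after their values were seen. TDRD7 had 616, 657 and 619 in WT and 288, 374 and 375 in cdkn1a+/- at 50 dpf, and 71.5, 68.5 and 48.2 in WT and 509, 501 and 494 in cdkn1a+/- at 8 mpf. The old WT samples stood far below all others, with a mean fall (log2 -1.36 ± 0.11 SE, adjusted p = 3.52e-07). For rnf212 the values were 199, 242 and 214 in WT and 139, 99.7 and 109 in cdkn1a+/- at 50 dpf, and 73.1, 81.8 and 79.9 in WT and 172, 157 and 178 in cdkn1a+/- at 8 mpf.

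The genes itgam.1, an integrin alpha M gene, and ftr01 and trim35-29, of the TRIM family, were among the named genes of the 94. Values of itgam.1 were 220.3, 258 and 235 in WT and 13.5, 17.2 and 28.7 in cdkn1a+/- at 50 dpf, and 17.6, 38.1 and 5.81 in WT and 104, 68.9 and 102 in cdkn1a+/- at 8 mpf, and the test of age was not passed (log2 -0.60 ± 0.33 SE, adjusted p = 0.135). Values of trim35-29 were 4092, 5162 and 4134 in WT and 1388, 3049.8 and 3876 in cdkn1a+/- at 50 dpf, with the 3 cdkn1a+/- samples widely spread, and 351, 958 and 540.5 in WT and 2695, 2716 and 2898 in cdkn1a+/- at 8 mpf. The gene ftr01 had 253, 255 and 205 in WT and 28.6, 15.5 and 30.2 in cdkn1a+/- at 50 dpf, and 0, 12.9 and 4.98 in WT and 23, 28.2 and 34.4 in cdkn1a+/- at 8 mpf.

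Kinase and cytoskeleton genes completed the named set. The protein kinase D family gene prkd4 had 456, 466 and 423 in WT and 92.5, 138 and 106 in cdkn1a+/- at 50 dpf, and 9.79, 14.1 and 7.47 in WT and 50.9, 40.6 and 56 in cdkn1a+/- at 8 mpf. ANK1 (ENSDARG00000074777), named for ankyrin, had 45.9, 29.4 and 36.5 in WT and 8.74, 17.8 and 5.23 in cdkn1a+/- at 50 dpf, and 8.4, 9.86 and 9.44 in WT and 210.4, 209 and 202 in cdkn1a+/- at 8 mpf. Its log2 ratio at 8 mpf was 4.49 in the normalised table and 1.86 in CPM. UCP1, the uncoupling protein of brown fat mitochondria in mammals, had 103, 107 and 105 in WT and 18, 0 and 1.69 in cdkn1a+/- at 50 dpf, and 7.22, 0.656 and 0.93 in WT and 40.2, 41 and 23.8 in cdkn1a+/- at 8 mpf. Its counts were only 4, 0 and 2 in cdkn1a+/- at 50 dpf and 8, 2 and 2 in WT at 8 mpf. SPIRE1 (ENSDARG00000038445), named for an actin nucleator, had 95.1, 90.02 and 137 in WT and 32, 15.5 and 45.3 in cdkn1a+/- at 50 dpf, and 0, 5.86 and 12.5 in WT and 46.1, 21.4 and 29 in cdkn1a+/- at 8 mpf. Old WT follicles had the lowest mean normalised value for prkd4, UCP1 and SPIRE1. For UCP1 the order of old WT and young cdkn1a+/- follicles rests on these few reads.

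PKLR, BHMT and hpxa, outside the fixed list, were chosen after their values were seen. PKLR, named for liver and red cell pyruvate kinase, had 824, 787 and 949.9 in WT and 139.6, 153 and 128 in cdkn1a+/- at 50 dpf, and 4.9, 21.1 and 28.2 in WT and 63.6, 59.8 and 53.5 in cdkn1a+/- at 8 mpf. BHMT, for betaine-homocysteine methyltransferase, had 348, 385 and 389 in WT and 139.8, 143 and 140.4 in cdkn1a+/- at 50 dpf, and 34.6, 22.8 and 18.3 in WT and 94.4, 118 and 118 in cdkn1a+/- at 8 mpf. The haemopexin gene hpxa had 280.1, 236 and 250.2 in WT and 111, 54.3 and 50.8 in cdkn1a+/- at 50 dpf, and 46.9, 48.9 and 54.8 in WT and 96.7, 88.4 and 64.8 in cdkn1a+/- at 8 mpf. By group means all 3 were highest in young WT and lowest in old WT follicles.

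**Figure D5:**
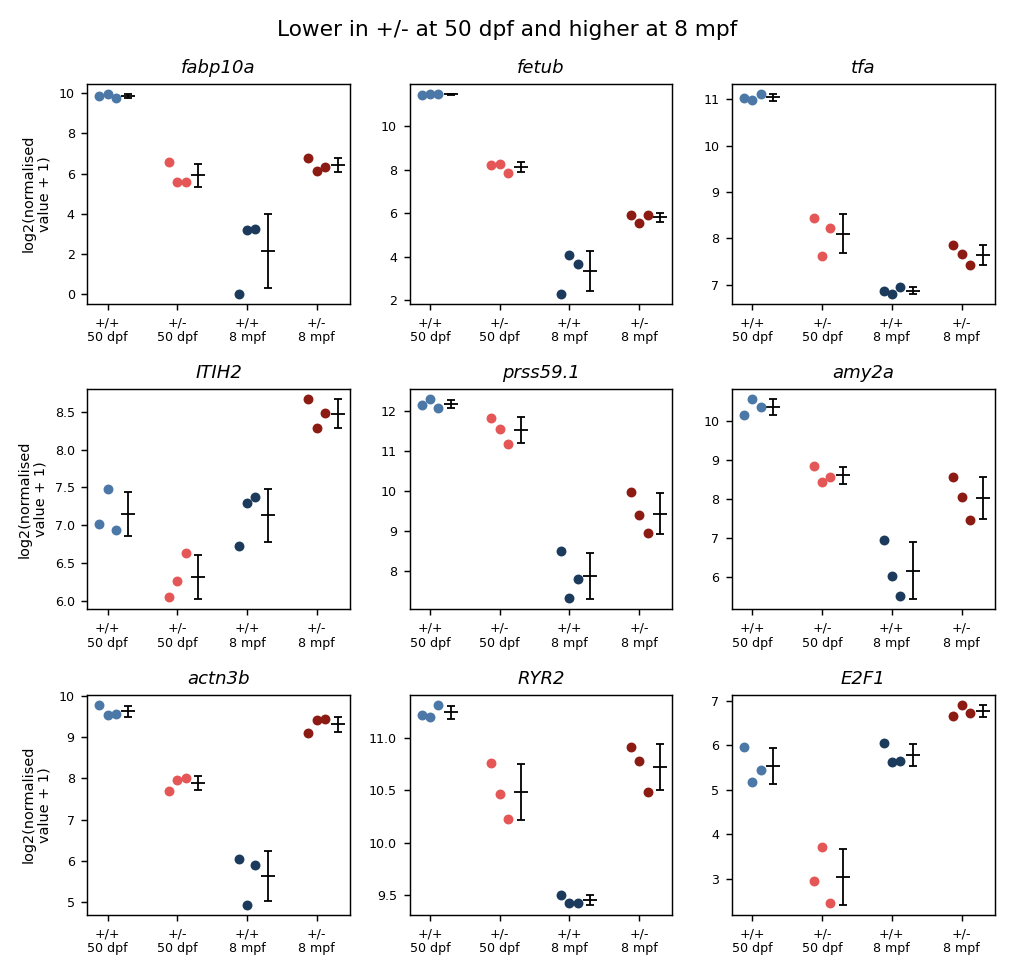
Points are the 3 samples of each group for 9 of the 94 genes, on a log2(normalised value + 1) axis that differs between panels and does not start at 0; the dash and bar are the mean and SD. The cdkn1a+/- points lie below the WT points at 50 dpf and above them at 8 mpf, and the WT level drops steeply with age for fabp10a, fetub, tfa, prss59.1, amy2a and actn3b.

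By gene order in the RefSeq annotation, which is of another assembly than the authors' build, 44 of the 60 and 66 of the 94 could be placed. Among the 94, 5 pairs were next to each other: apoa2 and apoc2 on chromosome 16, serpina1l and serpina1 on chromosome 20, ahsg1 and fetub on chromosome 22, ccdc167 and si:ch211-214j24.14 on chromosome 4, and GNAI3 and GPR61 on chromosome 8. A further pair, prkd4 and actn3b on chromosome 7, had 2 protein-coding genes between them. The first 3 pairs were of the liver list. No pair was found among the 44 placed genes of the 60, with a window of 5 genes. The genes si:dkey-31e10.1 and si:dkey-31e10.5, both of the 60, share a clone name but were not found as a pair, so neighbours may have been missed.

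At the edge of the choice, kcnj21, a potassium channel gene, entered the 60 with a 50 dpf ratio of 1.502, its value at 8 mpf being 2.99-fold lower in cdkn1a+/-, and bmp16, a BMP ligand gene, with 1.51. Just outside were PIWIL2, a piRNA pathway gene of germ cells (1.69-fold higher and 1.498-fold lower), and crlf1b (1.495-fold higher and 1.498-fold lower). The 94 took in RPS6KA3 (ENSDARG00000057927), a ribosomal S6 kinase gene, with a 50 dpf fold of 1.51 and P3H3, for a collagen prolyl hydroxylase, with an 8 mpf ratio of 1.51. Left out were cenatac, with an 8 mpf ratio of 1.499, and OTOF with 1.493.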

How the data were processed

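The sequencing libraries were made from total RNA with a directional kit, per the labels. The tools named in the submitters' processing notes are bcl2fastq, FastQC 0.11.5, HISAT2, StringTie and DESeq2, with the build GRCz11; their settings, the annotation and the strand setting of the counting are not given in the sources used here. The deposited count table holds whole numbers per gene, treated as estimated counts because StringTie is named, and needed no rounding. The deposited normalised table is a signal with a factor for each library. Of 15798 genes counted in every library, 7391 had factors of their own (by over 0.01 on the log2 scale). Of the 60 genes, 59 were counted in every library and 30 of these had such factors. Of the 94, 80 were so counted and 45 had them. These counts leave out the members with 0 counts in a sample. No member's genotype ratio had the other sign in CPM.

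The members were taken on the normalised table. The counts were tested with edgeR 4.0.16 (TMM scaling, quasi-likelihood, 1 mean for each of the 4 groups, 12 samples, filterByExpr leaving 18834 genes, R 4.3.3), with Benjamini-Hochberg adjustment over all of them and a threshold of 0.05. The mean age contrast is orthogonal to the genotype contrasts in groups of equal size and spread. It is not independent of the minimum group mean, nor of the genotype ratios where a group had counts near 0. DESeq2 1.42.0 and limma 3.58.1 were alternatives. The fit was tested on simulated data. CPM use TMM scaling unless said otherwise. The members and the 13 gene lists were chosen with earlier results of these data known.

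Of 32057 gene IDs, 28988 matched a symbol in the name table; symbols in capitals are printed as it gives them, and lists were matched also to capital symbols without the paralog ending. Symbols shared by several genes (26 members) are given with the gene ID where described in full. Named genes were the 14 with the largest smaller ratio and the 8 most abundant per direction, list members, edge genes, neighbours and list examples; other genes are marked as chosen after their values were seen. A gene that this rule names is not reported here. Replicate numbers did not pair the samples: correlations of same-numbered deviations ran from -0.159 to 0.144.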

Additional observations from a re-analysis of the deposited data

Results flagged for a closer look

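Effects of genotype that differ between the ages are the property that chose the 154 genes, so every one of them had all cdkn1a+/- samples on opposite sides of the WT samples at the 2 ages, and for them the difference was not tested. The median difference of log2 ratios, 8 mpf minus 50 dpf, was -2.10 for the 60 genes and 2.61 for the 94. In the gene lists the difference of genotype effects was tested with edgeR's quasi-likelihood test over all genes. For 33 liver list genes the cdkn1a+/- to WT ratio was higher at 8 mpf than at 50 dpf and for 1 lower. On the pancreas list it was higher for 16 genes and lower for 1. The 12 liver and 7 pancreas genes among the 94 are part of these counts. Over all tested genes 6.88% passed upward and 6.65% downward.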

How the results depend on the processing

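At a minimum ratio of 2, 13 genes were higher at 50 dpf and lower at 8 mpf and 37 the reverse, and at the lowest ratio tried, 134 and 181. With CPM by library size alone 39 genes were higher and then lower. Leaving out 1 replicate in turn gave 54 to 72 and 90 to 157 genes. With a minimum log2 fold change of 1, the mean age effect was called for 2788 genes higher and 2552 lower, for 14 and 10 of the 60, and for 13 of the 94 higher. The same minimum gave 966 higher and 2495 lower at 50 dpf, 832 and 1857 at 8 mpf, and 845 and 711 for the difference. Library size alone gave 1618 higher and 6749 lower at 50 dpf and 1337 higher at 8 mpf. It moved the median log2 change of all genes by -0.33 at 50 dpf, -0.18 at 8 mpf, and by 0.15 for both age and the difference; upper quartile scaling moved that of age by -0.16. Leaving out 1 replicate gave 1521 to 2818 genes higher at 8 mpf (the lowest without replicate 3 of cdkn1a+/- at 8 mpf), 878 to 2131 higher and 821 to 1987 lower for the difference (the highest without replicate 2 of WT at 8 mpf, the lowest of the second without replicate 2 of WT at 50 dpf). The causes were not tested. Of 306 values for the comparisons under the alternatives, all of them counts of genes, 282 were within 1.5 times of the reported ones. The 420 recomputed age effects of 20 named genes kept their direction and call. The replicate block, in samples that share only a number, called 6203 genes higher and 5880 lower with age, with 28 and 21 of the 60 and 21 and 58 of the 94, and 10 pancreas list genes lower at 50 dpf in place of 5. Depth limits the 1 gene of the 60 (gja13.2) and the 14 of the 94 with 0 counts in at least 1 sample, among them apoc2, ahsg1, apobb.1, fabp10a, ela2l, ftr01, UCP1, SPIRE1 and CAMTA1.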
